A study of Homo sapiens with 2 samples.

Results

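The kinesin motor genes were taken as the protein-coding genes whose symbol is KIF followed by a number and, where present, letters. This rule matched 42 symbols in RefSeq for human genome build 38, of which 3 are pseudogenes and were left out. The remaining 39 genes were set beside all 20033 protein-coding genes on chromosomes 1 to 22, X and Y. Related motors whose symbol has another form, such as CENPE and KIFC1, were therefore not members.

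The data are RNA immunoprecipitation sequencing (RIP-seq) of A549, a long-established cell line of human lung adenocarcinoma that the labels list as non-small cell lung cancer. RNA was recovered from cell lysate with an antibody to HNRNPC, a nuclear RNA-binding protein, in 1 immunoprecipitate (IP) library, and 1 input library was made without antibody. Both came from the same kind of lysate, and the labels give no drug, knockdown or other condition. The values used were the 23111 peaks of the IP library on these chromosomes, and no separate values of the input were read. The deposited folds and their backgrounds may already rest on the input, which the sources used here do not state. With 1 library a group there is no replicate error and no test between samples. Peaks do not measure expression, so the identity of the cells was not checked against marker genes.

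Kinesins are motors that use ATP to act on microtubules. Some build and move the spindle during cell division, and others carry vesicles, organelles and protein complexes along microtubules between divisions. A few shorten microtubules or act in cilia rather than walk with a load. The members were therefore read as 14 mitotic kinesins, 13 cargo kinesins and 12 that belong to neither class here, among them ciliary and Hedgehog pathway members.

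HNRNPC peaks lay in 15 of the 39 kinesin genes (38.5%, 95% exact Clopper-Pearson interval 23.4 to 55.4%), beside 18.4% of all protein-coding genes. A gene was counted when the summit of a peak lay in its span. Mitotic kinesins had a peak in 7 of 14 cases (50%, interval 23.04 to 77.0%) and cargo kinesins in 7 of 13 (53.8%, interval 25.1 to 80.8%). Of the 12 other kinesins, only KIF21A had one (8.33%, interval 0.211 to 38.5%). The mitotic share differed from the cargo share by -3.85 percentage points (mitotic minus cargo), with a 95% Newcombe interval from -36.5 to 30.04. That interval spans large differences in either direction, and the comparison does not show that the classes are alike. These intervals cover counting error over genes only.

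**Figure D1:**
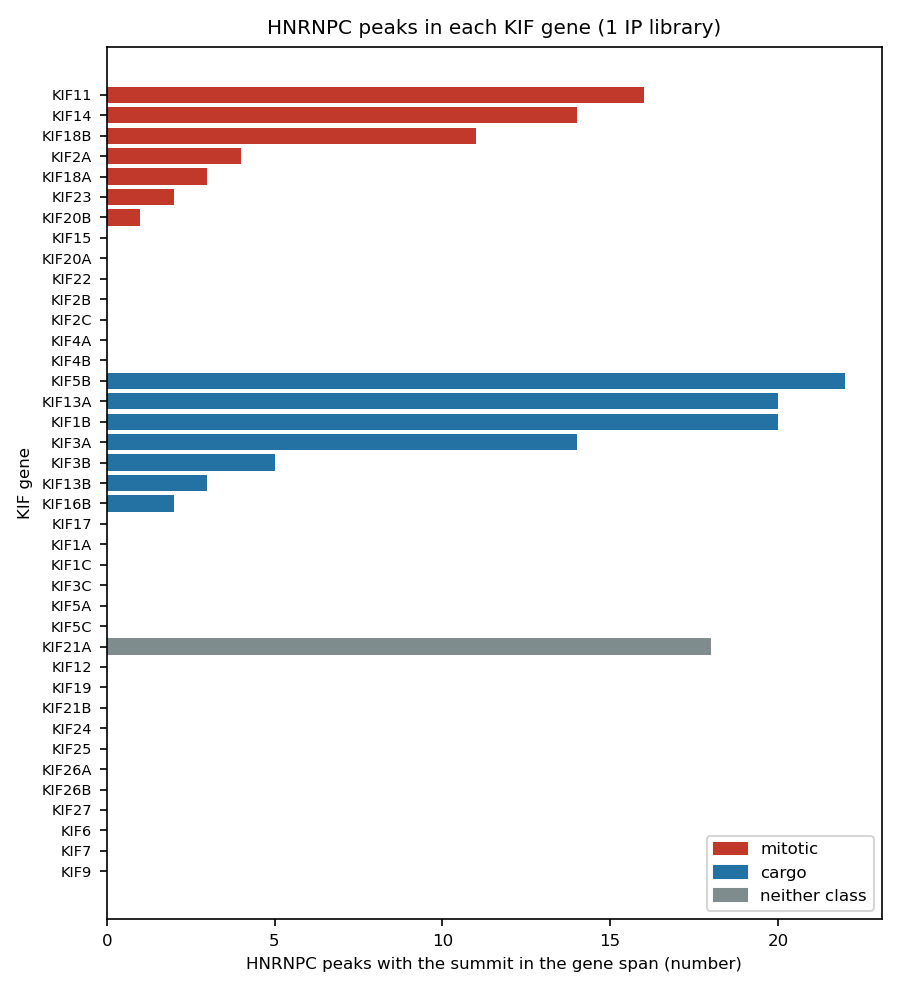
Bars give the number of HNRNPC peaks (x axis) in each of the 39 KIF genes (y axis), coloured by class, in 1 IP library. KIF5B with 22 peaks has the longest bar, KIF11 with 16 leads the mitotic kinesins, and 24 genes have no peak.

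The number of peaks per gene varied widely among the members. Together the 15 genes held 155 peaks, and the 6 with the most held 110 of them (71.0%). Genes with 10 or more peaks numbered 8 of 39, beside 3.9% of all protein-coding genes. As a share of the genes with any peak this was 53.3%, beside 21.2% of all protein-coding genes with a peak. The 7 mitotic genes with a peak held 51 peaks, with a median of 4 per gene. The 7 cargo genes with a peak held 86, with a median of 14. Cargo genes with a peak were longer, with a median span of 171.03 kb against 69.3 kb. Pooled over the summed spans the order was the reverse, at 11.7 peaks per 100 kb in mitotic and 8.19 in cargo genes with a peak. Gene by gene it was not reversed, with middle values of 5.87 per 100 kb in mitotic (KIF23) and 8.75 in cargo genes (KIF13A). Single genes ranged from 1.36 to 47.7 in mitotic and from 0.664 to 46.4 in cargo kinesins. The order per length thus depended on the measure. Peaks of a gene share its RNA, so none of these comparisons was tested.

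Each fold is the enrichment at a summit over the background used by the peak caller, as the authors deposited it. Fold and p of every row were matched by a whole number of IP fragments at the summit, each weighted by 0.535, over a background level in the same scaled fragments. The match was within 0.0002 in −log10 p for all 23148 rows, and a single whole number matched for each of the 155 kinesin peaks. The lowest background in the list was 0.103, and at that level 1 further IP fragment raised the fold by 0.485. Kinesin peaks rested on 6 to 37 IP fragments with a median of 13, against a median of 15 over all peaks. The lowest background applied to 88 of the 155 (56.8%), beside 47.5% of all peaks, and there the fold follows the number of IP fragments alone. Some kinesin peaks had a background of 1, 2 or 3, whole numbers that do not carry the weight of 0.535 given to IP fragments. Whether these are fragments of the input library was not tested. Read totals of the libraries are not in the list.

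Among the mitotic kinesins, KIF11 carried the most peaks and the highest fold. KIF11, also called Eg5, pushes spindle poles apart and lies at chr10:92593130-92655395. Its 16 peaks had folds from 4.44 to 12.1, over 9 to 35 IP fragments. The highest, at chr10:92630228-92630364, had 24 IP fragments (95% exact Poisson interval 15.4 to 35.7), a background of 0.141 and a −log10 q of 16.1. Peaks at chr10:92606244-92606369 and chr10:92632488-92632726 had folds of 12.07 and 11.8. KIF11 thus held 3 peaks above a fold of 11, while 10 of its 16 peaks had a background of 1 or more. By best fold it ranked 356 among the 3684 protein-coding genes with a peak.

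KIF14 and KIF18B also carried many peaks, at very different backgrounds. KIF14, which acts at the midbody in cytokinesis, held 14 peaks over chr1:200551497-200620751. All 14 were at the lowest background, with 7 to 16 IP fragments and a highest fold of 8.67 at chr1:200565483-200565676. KIF18B, a motor of astral microtubule ends, held 11 peaks in a span of only 23.1 kb at chr17:44924711-44947773. None of these was at the lowest background, and the background had a median of 2 and reached 6.

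KIF18B shows how fold and IP pile-up can part within this list. Its summits held 20 to 37 IP fragments with a median of 30, the highest median of the 15 genes, while its median fold of 4.83 lay below that of KIF14 at 5.76. The peak of KIF18B with the most IP fragments, 37 at chr17:44926207-44926380, had its lowest fold, 2.97. Its best fold of 8.16 was at chr17:44932034-44932147, with 32 IP fragments. KIF18B had 47.7 peaks per 100 kb, beside 46.4 in KIF5B, and ranked 89 among all protein-coding genes with a peak. With q of 0.001 or less, or with a fold of 4 or more, KIF18B kept 7 peaks (30.4 per 100 kb), while KIF5B kept 21 (44.3) and 20 (42.2), so KIF5B was then the denser.

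The other 4 mitotic kinesins with a peak had few. KIF2A, which shortens microtubules at spindle poles and in neurons, had 4 peaks. One of them, at chr5:62348071-62348134, had a fold of 10.6 over 20 IP fragments. KIF18A, which dampens chromosome movements on the spindle, had 3 peaks with folds of 5.27, 6.73 and 6.73. KIF23, the motor of the centralspindlin complex at the midzone, had 2 peaks with folds of 4.45 and 6.24. KIF20B, which acts in cytokinesis, had a single peak of 7 IP fragments with a fold of 4.30. All peaks of KIF2A, KIF18A and KIF20B were at the lowest background.

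The mitotic kinesins without a peak were KIF2B, KIF2C, KIF4A, KIF4B, KIF15, KIF20A and KIF22. Several are short, with spans of 2.27 kb for KIF2B, 4.39 kb for KIF4B, 8.61 kb for KIF20A and 14.6 kb for KIF22. KIF4A, a chromokinesin, and KIF15, a spindle motor that can stand in for KIF11, are long genes of 130.8 and 106.9 kb. KIF4A and KIF4B are close copies, but with a span of 4.39 kb KIF4B can match only part of KIF4A. Reads of that part may have been split or lost between them, and this was not tested. No peak reached within 2000 bp of any of the 24 kinesin genes without one. A gene with little RNA in these cells and a gene whose RNA HNRNPC did not retain cannot be told apart here, because expression was not measured.

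KIF5B led the cargo kinesins and the whole family. It encodes the ubiquitous heavy chain of conventional kinesin, which moves mitochondria, vesicles and mRNA granules, and lies at chr10:32009015-32056425. Its 22 peaks had folds from 3.73 to 13.4, over 14 to 36 IP fragments. The highest fold was at chr10:32037221-32037625, with 26 IP fragments (interval 16.98 to 38.1), a background of 0.113 and a −log10 q of 19.2. Peaks at chr10:32040359-32040450 and chr10:32055838-32056401 had folds of 11.1 and 10.3. The median fold of KIF5B, 7.58, was the highest of the kinesins with a peak, although 16 of its 22 peaks had a background of 1 or more. Within its span class of 35302 to 52298 bp (1 of 10 equal classes of protein-coding genes), 2 of 2003 protein-coding genes, KIF5B included, had as many peaks. Of its summits, 5 also lay in the lncRNA gene LOC107984219, and the list has no strand to separate them.

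KIF1B and KIF13A, both of the kinesin-3 family, held 20 peaks each in much longer spans. KIF1B carries synaptic vesicle precursors and mitochondria and spans chr1:10210570-10381603. Its folds ran from 4.25 to 9.16, and 15 of its 20 peaks were at the lowest background. KIF13A, an endosomal motor, spans chr6:17759126-17987635. Its folds ran from 3.82 to 7.70, and 16 of its 20 peaks were at the lowest background. Both thus had many peaks of few IP fragments, at most 17 in either gene, against a median of 27.5 in KIF5B.

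KIF3A and KIF3B, which pair to form the kinesin-2 motor of intraflagellar transport, both carried peaks. KIF3A had 14 in 48.7 kb at chr5:132688812-132737546, or 28.7 per 100 kb, with folds from 4.79 to 10.1. In its span class 30 of 2003 genes had as many. KIF3B had 5 in 57.4 kb, with folds from 4.30 to 7.22. KIF3C, an alternative partner of KIF3A, had none in 55.9 kb. Their accessory subunit gene KIFAP3 had none either.

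KIF13B and KIF16B are long genes with 3 and 2 peaks. In their span class 33.6% of 2004 genes had any peak, and 479 and 552 had as many peaks as KIF13B and KIF16B or more. KIF13B, a kinesin-3 motor that binds the scaffold protein DLG1, spans 196.1 kb and had folds of 4.79, 5.27 and 6.24. KIF16B, which moves early endosomes, spans 301.3 kb and had folds of 4.28 and 4.30 over 8 and 7 IP fragments. The cargo kinesins without a peak were KIF1A, KIF1C, KIF3C, KIF5A, KIF5C and KIF17. KIF1A, KIF3C, KIF5A, KIF5C and KIF17 are best known from neurons, whereas KIF1C is widely expressed. Within the kinesin-1 heavy chains, peaks were thus present in KIF5B and absent from KIF5A and KIF5C.

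KIF21A was the only kinesin outside both classes with a peak. It encodes a kinesin that restrains microtubule growth and spans chr12:39293228-39443120. Its 18 peaks had folds from 4.25 to 7.22 over 7 to 17 IP fragments, and 15 of them were at the lowest background. Its close relative KIF21B had no peak in 54.3 kb. KIF7, of Hedgehog signalling, and the members of cilia, KIF6, KIF9, KIF19 and KIF24, also had none, nor had KIF12, KIF25, KIF26A, KIF26B or KIF27. The longest of all kinesin genes, KIF26B at 554.4 kb and KIF6 at 395.4 kb, were among these.

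**Figure D2:**
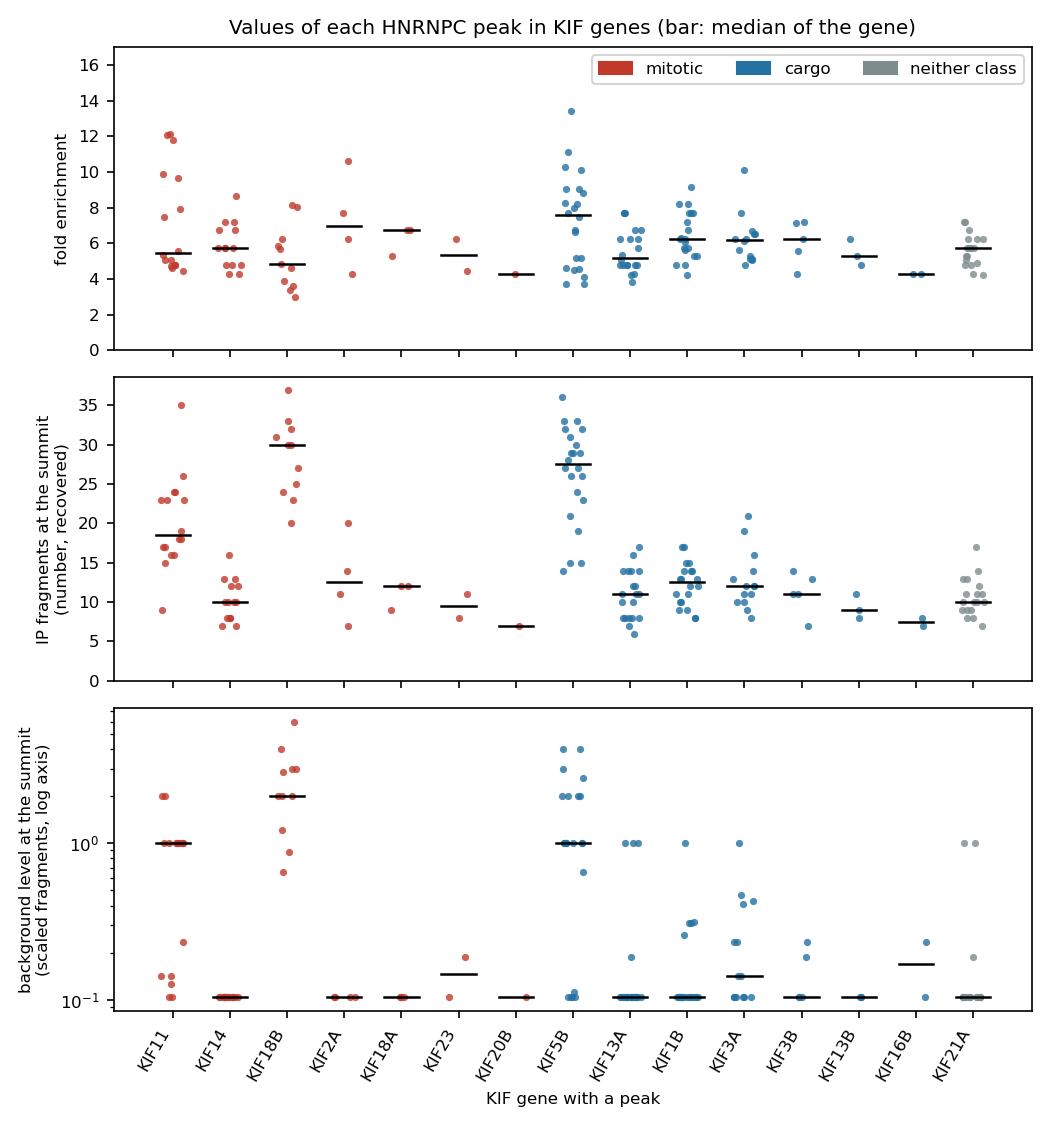
Each point is a peak of a KIF gene (x axis), with its deposited fold enrichment (top), the IP fragments recovered at its summit (middle) and the background level in scaled fragments on a log axis (bottom), and black bars are gene medians. KIF5B, KIF11 and KIF18B have the highest medians of IP fragments and of background, while the highest median fold is that of KIF5B at 7.58.

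The higher backgrounds were concentrated in the same 3 genes that had the highest medians of IP fragments. KIF5B, KIF11 and KIF18B held 49 of the 155 kinesin peaks and 35 of the 42 with a background of 1 or more. By class, the median fold of peaks was 5.76 in mitotic and 6.24 in cargo kinesins, and 5.76 over all protein-coding genes. The median best fold was 8.16 for the 7 mitotic and 7.70 for the 7 cargo genes with a peak, and 7.04 over all protein-coding genes with a peak. Best folds ran from 4.30 to 12.1 in mitotic and from 4.30 to 13.4 in cargo kinesins, so the classes overlapped.

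Kinesin peaks were short. Their median width was 111 bp, 96 bp in mitotic and 121 bp in cargo kinesins, against 124 bp over all protein-coding genes. Widths of 200 bp or more were found in 25 of 155 (16.1%), beside 24.01% over all protein-coding genes. The widest, 632 bp, lay in KIF14 at chr1:200617639-200618270. Peaks covered 9.26% of the KIF5B span, 7.03% of KIF18B and 3.75% of KIF3A, and at most 3.52% of any other kinesin span. Whether a peak lies in an exon, an intron or a UTR was not analysed here.

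Longer genes offer more positions for a peak, and kinesin genes are long. Their median span was 56.4 kb, against 24.1 kb for all protein-coding genes. When each member was given the share with a peak of the protein-coding genes in its own span class, 10.97 of the 39 kinesins would have had one, and 15 had. By the same count the mitotic class came to 3.28, with 7 observed, and the cargo class to 4.16, with 7 observed. The 12 others came to 3.53, with 1 observed. These sums describe this list and carry no test, and expression was not matched.

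**Figure D3:**
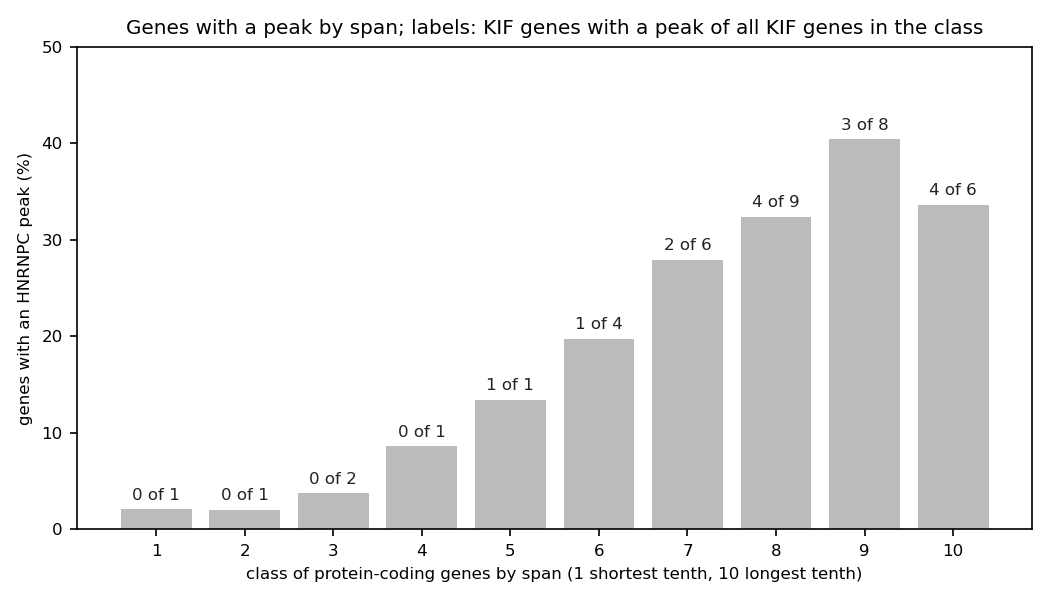
Grey bars give the share of protein-coding genes with an HNRNPC peak (y axis, percent) in each of 10 classes by span (x axis), and labels give the KIF genes with a peak of those in the class. The shares run from 2.05% in the shortest class to 40.4% in class 9, and no KIF gene in the 4 shortest classes has a peak.

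A peak lay at the very start of most kinesin genes that had one. A start and strand were listed for 33 members, 14 of them with a peak; KIF13B was not among these. Of the 14, 9 had a summit within 500 bp downstream of a listed start (64.3%, interval 35.1 to 87.2%), beside 53.6% of all protein-coding genes with a peak and a listed start. The kinesin share was thus near that of other genes in this list. Both classes contributed 4 genes, KIF11, KIF18A, KIF18B and KIF23 among the mitotic and KIF1B, KIF3A, KIF5B and KIF13A among the cargo kinesins, and KIF21A was the ninth.

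These summits lay close to the first base. They were 27 bp from it in KIF21A, 29 bp in KIF13A, 33 bp in KIF3A, 55 bp in KIF1B, 67 bp in KIF18A, 110 bp in KIF18B, 133 bp in KIF23, 250 bp in KIF5B and 279 bp in KIF11. The start peaks of KIF5B and KIF11 were the strongest of these, with folds of 10.3 and 9.87 over 30 and 35 IP fragments. That of KIF1B had a fold of 9.16, the highest in its gene. Those of KIF13A, KIF18B and KIF23 had low folds, at 4.79, 3.86 and 4.45. The start peak of KIF18B still held 27 IP fragments, over a background of 3, whereas those of KIF13A and KIF23 held 8 each. The start peak of KIF23 also lay in the span of KIF23-AS1, an antisense gene, and cannot be assigned to a strand.

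In 7 of the 9, part of the peak fell in the window from 250 bases before to 50 bases after the start for which RefSeq sequence of build GRCh38.p14 was at hand. The 60 bases around the start are shown for 6 of them, because they give the letters at which these peaks begin. Each runs 5′ to 3′ on the gene's strand with 30 bases before the start and the first 30 transcribed bases, and capitals mark the bases under the peak.
KIF11, chr10:92593100-92593159, plus strand: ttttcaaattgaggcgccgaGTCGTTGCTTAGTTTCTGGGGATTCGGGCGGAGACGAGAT
KIF21A, chr12:39443091-39443150, minus strand: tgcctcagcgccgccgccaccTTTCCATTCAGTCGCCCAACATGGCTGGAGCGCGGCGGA
KIF3A, chr5:132737517-132737576, minus strand: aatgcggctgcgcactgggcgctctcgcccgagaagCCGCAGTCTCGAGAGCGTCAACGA
KIF13A, chr6:17987606-17987665, minus strand: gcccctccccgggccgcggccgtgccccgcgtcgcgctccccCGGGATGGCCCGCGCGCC
KIF1B, chr1:10210540-10210599, plus strand: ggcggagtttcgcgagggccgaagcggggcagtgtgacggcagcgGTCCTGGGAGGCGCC
KIF5B, chr10:32056396-32056455, minus strand: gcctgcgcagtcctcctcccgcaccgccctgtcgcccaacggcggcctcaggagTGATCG

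The edges of these peaks lay close to the annotated starts. In KIF11 and KIF21A the peak began 10 and 9 bases before the start, and in the other genes shown it began at transcribed base 7 (KIF3A), 13 (KIF13A), 16 (KIF1B) and 25 (KIF5B). In KIF18A, which is not shown, it began at base 42. The share of G and C in the first 50 transcribed bases ran from 54.0% in KIF18A to 82.0% in KIF13A. These values lay on both sides of the median of 64.0% over all such windows of protein-coding genes. KIF18A, KIF11 and KIF3A were below it and the others above. HNRNPC is known for binding runs of U, so runs of 5 T (TTTTT) were looked for on both strands. Neither TTTTT nor AAAAA, its form on the other strand, occurred in the first 50 bases of the 7 genes, beside 2.57% and 1.62% of 22198 windows. In the whole window KIF11 alone held TTTTT on its own strand, beside 20.7% of all windows. That run lay before the start and outside the bases under the peak. With shares so small, absence from the first 50 bases of 7 genes cannot show whether these peaks hold such runs. The summits of KIF1B, KIF18A, KIF5B and KIF11 also lay beyond those 50 bases. A match or its absence concerns these letters in this window only.

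**Figure D4:**
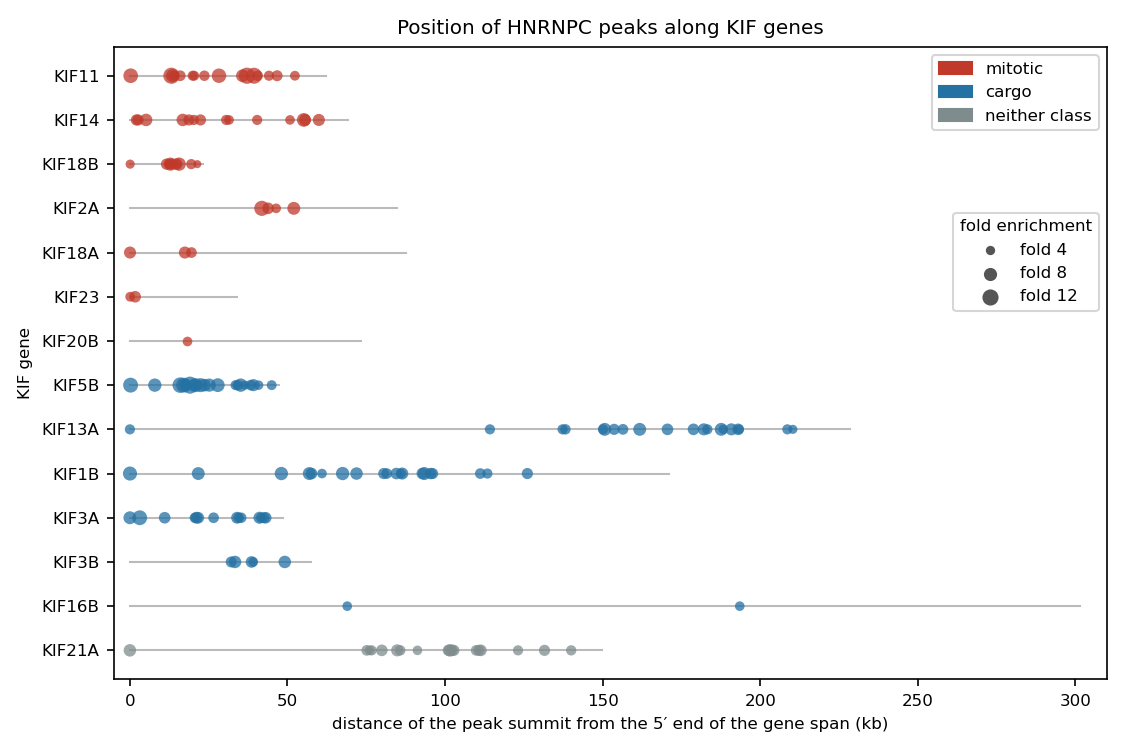
Points mark peak summits along 14 KIF genes (y axis) by distance from the 5′ end of the span in kb (x axis), with point size by fold and colour by class, and grey lines are gene spans. In KIF13A and KIF21A a start peak is followed by 114.2 and 75.1 kb without a summit, while the largest distance between neighbours in KIF5B is 8.08 kb.

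The spacing of summits along the gene differed between members. In KIF13A the second summit lay 114.2 kb from the 5′ end and the other 18 followed by 210.4 kb. In KIF21A the second summit lay 75.2 kb in, and the remaining 16 followed by 140.02 kb. The largest distance between neighbouring summits was 8.08 kb in KIF5B, 9.52 kb in KIF3A and 11.6 kb in KIF14. By median, neighbouring summits were closest in KIF18B, with a median distance of 0.717 kb, in KIF3A with 0.917 kb and in KIF5B with 1.24 kb. In KIF5B, 9 of 21 distances between neighbours were 1 kb or less. KIF2A had all 4 summits between 41.9 and 52.03 kb of its 84.8 kb span.

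Within 1000 bp of the 3′ end, 0 of the 14 genes with a listed strand had one (interval up to 23.2%), beside 1.82% of all protein-coding genes with a peak and a listed start. Within 2000 bp it was 1 of 14 (7.14%), beside 11.9%. With 14 genes, a difference from all genes was not detectable in these windows. The nearest was 1.65 kb away in KIF18B, followed by 2.40 kb in KIF5B and 5.61 kb in KIF3A. In KIF1B the last 44.9 kb held no summit, and in KIF18A the last 67.98 kb. Mitotic kinesins had 21 of 51 summits (41.2%) in the 5′ part of the span when it was cut into 3 equal parts, and cargo kinesins 11 of 83 (13.3%), beside 28.4% over all protein-coding genes. KIF11 and KIF14, with 7 each, made up 14 of the 21, while KIF13A had 1 of 20 there. The difference was not tested, and peaks of 1 gene are not independent.

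The further gene lists of microtubule transport and division had peaks in 20% to 65.2% of their genes. Of 23 spindle and midzone genes, 15 had a peak (65.2%, interval 42.7 to 83.6%), beside the 18.4% of all protein-coding genes and 5.59 from their span classes. The highest folds were in ECT2, an exchange factor for RhoA in cytokinesis, at 14.5 over the gene's 15 peaks, ANLN, the anillin scaffold of the contractile ring, at 13.04, INCENP of the chromosomal passenger complex at 10.1 and CLASP2, a microtubule stabiliser, at 10.1. Of 17 dynein and dynactin genes, which serve transport to microtubule minus ends, 4 had a peak, beside 3.84 from their span classes. These were DYNC1LI2 at a fold of 14.5, DYNC1H1 at 10.6 with 24 peaks, DCTN4 at 9.16 and DYNC1I2 at 5.27. Of 15 further kinesins, light chains and adaptors, 3 had a peak, beside 3.62 from their span classes. They were the mitochondrial adaptors TRAK2 at 9.64 and TRAK1 at 6.24, and KIDINS220 at 5.76, while KIFC1, CENPE and the light chains KLC1 to KLC4 had none.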

How the data were processed

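Per the submitters' processing notes, HISAT2, MACS2, bedtools and build hg38 were used; versions, settings and the role of the input are not given in the sources used here. The deposited list holds for each peak a fold (a ratio over background) and the −log10 of its p and q. The deposited score equals 10 times the −log10 q with decimals dropped, and it was not used further. Genes came from RefSeq spans (GRCh38 patch 14) and starts from its start windows. The members, classes and lists were chosen with earlier results of these data known. Every kinesin with a peak and each mitotic or cargo kinesin without one was named by rule, with up to 4 members by best fold of each further list; positions at gene starts and ends, KIFAP3, KIFC1, CENPE and the light chains were chosen after values were seen. IP fragments were recovered by assuming fold = (scaled fragments + 1) / (background + 1) and a Poisson p of the integer part of the scaled fragments, with a tolerance of 0.0002. Gene assignment and this recovery were run on simulated data. The simulated counts were made with the same formulas and did not reach down to the smallest kinesin counts. They therefore check the code and cannot check the assumed formulas. Span classes were 10 equal groups of protein-coding genes. Intervals (95%) cover counting error only. Depth of the libraries is unknown. Alternatives were q of 0.001 or less, fold of 4 or more, any overlap of 1 bp, a summit in 1 protein-coding span, and other class lists. Python 3.11.15, numpy 2.4.6, pandas 2.3.3, scipy 1.17.1, statsmodels 0.14.6 and matplotlib 3.10.9 were used.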

Additional observations from a re-analysis of the deposited data

How the results depend on the processing

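With q of 0.001 or less, 13 kinesin genes and 130 peaks remained; KIF16B and KIF20B lost all their peaks, so each class had 6 genes, and 7 genes had a summit near a start. A fold of 4 or more left all 15 genes with 148 peaks. Any overlap of 1 bp and a summit in 1 protein-coding span gave 15 genes and 155 peaks. The mitotic minus cargo difference ranged from -7.69 points, with KIF2A in neither class, to -3.30. Leaving out 8 summits that also lie in a noncoding gene or pseudogene, chosen after seeing the data as were wider windows at starts (9 genes at 1000 and 2000 bp), left 15 genes and 147 peaks. No paired analysis was possible because each group had 1 library. Which peaks lie near the limit of this list depends on the background as well as on IP fragments. The lowest −log10 q of a kinesin peak, 2.01, belonged to peaks of 14 IP fragments over a background of 1. At the lowest background, peaks of 6 or 7 IP fragments had 2.24, and those of 10 had 5.22. The KIF18B peak of 37 IP fragments, over a background of 6, also had 2.24.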

Other observations

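A summit within 500 bp downstream of a listed start was commoner in genes with many peaks. Among protein-coding genes with 10 or more peaks and a listed start, 505 of 665 had one (75.9%, 95% exact Clopper-Pearson interval 72.5 to 79.1%), against 1143 of 2409 with fewer peaks (47.4%, interval 45.4 to 49.5%). Among the kinesins, 7 of 8 genes with 10 or more peaks and 2 of 6 with fewer had one. KIF14, with 14 peaks, was the exception among the former, with its first summit 2.08 kb from the 5′ end. These windows were chosen after the values were seen, and genes with more peaks have more chances of a summit in any window.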
